A study of Mus musculus with 20 samples.

Results

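The second hour of an insulin-like growth factor 1 (IGF1) treatment was examined by comparing 4 RNA sequencing libraries of tenocytes treated for 2 h with 4 libraries treated for 1 h. These 8 libraries were chosen by their labels from the 20 of the series, and all 14420 expressed genes entered the comparison. Tenocytes, the fibroblast-like cells that build and maintain tendon, were obtained from tail tendons of wild-type adult C57Bl/6 mice and received 100 ng/mL of recombinant IGF1. The 1 h and 2 h groups share strain, age, tissue and dose, and time is the only difference between them that the labels give. A group of 4 libraries at 0 h, which received no cytokine, gave the first-hour change against which the second hour was read, and 4 libraries each at 6 h and 24 h gave the later levels. No untreated control at 1 h or 2 h is part of the comparison (such cultures were not analysed here), so IGF1 and time in culture cannot be told apart. Whether the 4 libraries of a group stem from different animals or dishes is not in the labels, and p-values then measure only the spread between these samples, which may be technical.

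IGF1 binds its receptor tyrosine kinase, and insulin receptor substrate proteins pass the signal to PI3 kinase and AKT and to the RAS and ERK cascade. ERK drives immediate early genes, whose transcription starts without new protein synthesis, and these include repressors and phosphatases that shut the same response down again. AKT moves FoxO transcription factors out of the nucleus, so that the genes they maintain fall, and through mTORC1 it raises the synthesis of ribosomes, sterols and glycolytic enzymes. In tendon, IGF1 is known as a growth signal for tenocytes and for matrix production.

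The question of the comparison was which of the immediate changes went on, stalled or turned back between 1 h and 2 h. Levels are CPM, read counts scaled to library size, listed for replicates 1 to 4 in order, and changes are log2 fold changes ± standard error (SE) from edgeR's quasi-likelihood test with n = 4 per time. Calls are two-sided and need an adjusted p under 0.05, by Benjamini-Hochberg over all 14420 genes. Values labelled first hour compare 1 h with 0 h.

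Total counts ran from 15850304 to 22687173 per library at 0, 1 and 2 h, and mitochondrial genes held 1.31% to 1.75% of them. The tissue label held up: the 19 tested tendon markers averaged log2 CPM 8.51 to 8.70 at 1 h and 8.595 to 8.69 at 2 h, and Scx, the tendon-forming transcription factor, stood at 3356 CPM or more in every library of both times. In bulk RNA, fewer cells of a type and less RNA per cell cannot be told apart. The 2 h group was the more uneven: a chi-square of counts between replicate pairs gave 8.67 to 52.5 per degree of freedom at 2 h and 4.23 to 9.09 at 1 h. A pair of 2 h libraries stood apart. In 2 h replicate 4, genes in the shortest quintile by exonic length lay a median log2 0.312 above their 1 h mean and those in the longest quintile at −0.342, while the other 11 libraries of 0, 1 and 2 h stayed between −0.0244 and 0.0548 for the shortest and −0.0312 and 0.0489 for the longest. In 2 h replicate 2, markers of several other cell types were high. The 15 tested macrophage markers summed to 1190.0 CPM there, against 439 to 648 in the other 2 h libraries and 268 to 579 at 1 h, and 8 tested Schwann cell markers summed to 114 CPM against 27.5 to 37.7 and 29.0 to 34.2. Of the 15 macrophage markers, 4 were called higher at 2 h than at 1 h (Cd68, Tyrobp, Cd53 and Ptprc, against 7.5% of all tested genes) and 0 lower. None was called without 2 h replicates 1 and 2. All 15 had a positive step, with a median of 0.87. Of 9 tested osteoclast-like and lipid-handling macrophage genes, 6 were called higher and 0 lower, and 0 without 2 h replicates 1 and 2. Each of the 16 listed macrophage markers had counts at both times. The part of either library in the results was not tested, so counts are also given without them, by an alternative chosen after seeing the data.

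**Figure D1:**
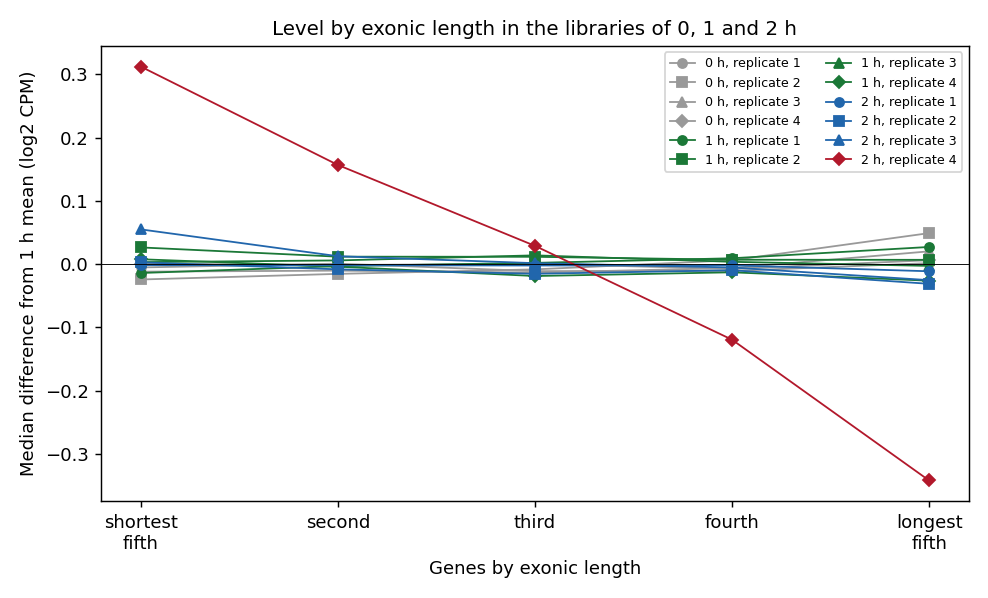
Median log2 difference of all tested genes from their 1 h mean (y axis) in each quintile of exonic length (x axis, shortest to longest) for the 12 libraries of 0, 1 and 2 h, 1 line per library. The red line, 2 h replicate 4, falls from 0.312 to −0.342, and the other 11 lines stay within −0.0312 and 0.0548 at both ends.

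**Figure D2:**
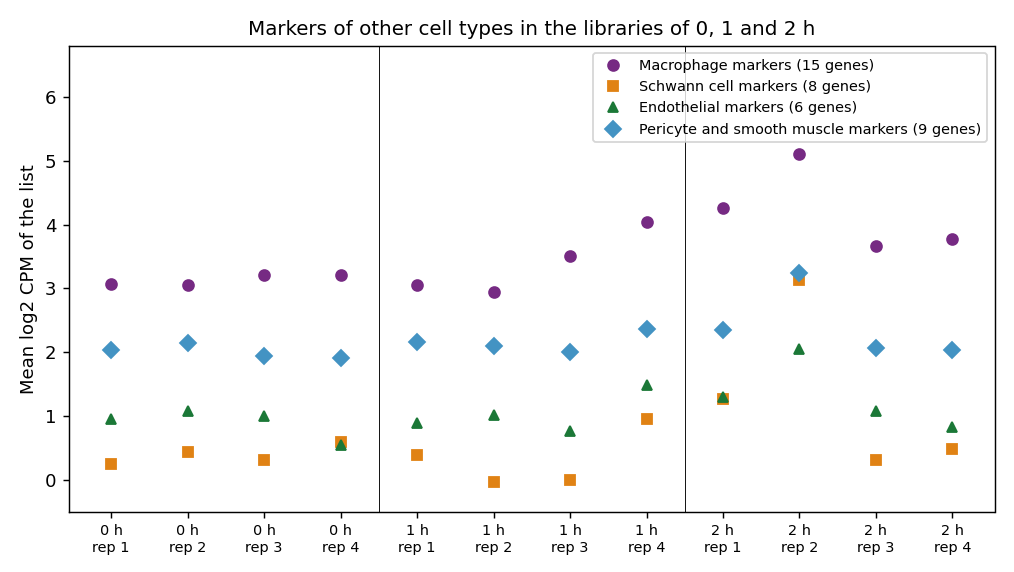
Mean log2 CPM (y axis) of 4 marker lists in each of the 12 libraries of 0, 1 and 2 h (points). Each list is at its highest in 2 h replicate 2: macrophage 5.11, pericyte with smooth muscle 3.245, Schwann 3.13 and endothelial 2.058. By summed CPM the endothelial list was not highest there, at 35.8 against 41.2 to 48.1 at 1 h.

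From 1 h to 2 h, 2357 genes changed, which is 16.3% of those tested. Of these, 1082 (7.5% of tested genes) rose and 1275 (8.84%) fell. Changes of at least 2-fold were more often upward, with 164 rises and 61 falls. Of these, 139 rises and 39 falls were of genes not called in the first hour. The split is given for the fit of all 20 libraries only. Markers of other cell types had steps of up to 1.545 (macrophage) and 3.71 (Schwann cell), and their part in the split was not tested. The first hour had 1533 calls (10.6%), 973 higher (6.75%) and 560 lower (3.88%). The 4 and 4 libraries of 1 h and 2 h did not overlap for 2203 genes (15.3%), and 1678 of the called genes (11.6% of tested genes) had no overlap. At the edge of the threshold, Ano10 (−0.16, adjusted p = 0.04999) was the last gene inside and Id3 (−0.37, adjusted p = 0.05002) the first outside. The number of calls moved with the fit: 776 (326 higher, 450 lower) when only the 8 libraries were fitted, 1205 when the fit held a term for each library's macrophage markers, and 1615 (780 higher, 835 lower) without 2 h replicates 2 and 4, but 2431 without 2 h replicates 1 and 2 and 2739 without 2 h replicate 4. A core of 271 risers and 395 fallers was called in the same direction in each of these fits. Each called gene whose change is given below kept its call in every alternative run for single genes, leave-one-out fits included, unless the text says otherwise, and genes named only within a count need not have.

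Most of the genes that were higher after 1 h of IGF1 than at 0 h did not fall back by 2 h. Of the 973 first-hour risers, 279 (28.7%) rose further and are called continued, and 92 (9.46%) fell and are called reversed. Another 545 (56.0%) were not called and had a 95% interval of the step within 1.5-fold both ways, and are called held. In the last 57 the interval was wider. Of the 560 first-hour fallers, 194 (34.6%) fell further, 32 (5.71%) rose back, 230 (41.1%) held and 104 had a wider interval. Outside the first-hour response, 771 genes that were not called at 1 h rose from 1 h to 2 h (new risers) and 989 fell (new fallers). These 2 comparisons share the 1 h libraries, so noise there moves them in opposite directions, and the counts are a description. Without 2 h replicates 2 and 4, the risers split into 297 continued, 68 reversed and 976 with no further change called, and the fallers into 276, 37 and 755. Single libraries mattered too: 293 fallers continued and 568 had no further change called without 2 h replicate 4, 21 fallers reversed without 1 h replicate 2, and the new risers and new fallers numbered 504 and 654 without 1 h replicate 1. In every fit that was run the reversed group was smaller than the continued group, for risers and for fallers.

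**Figure D3:**
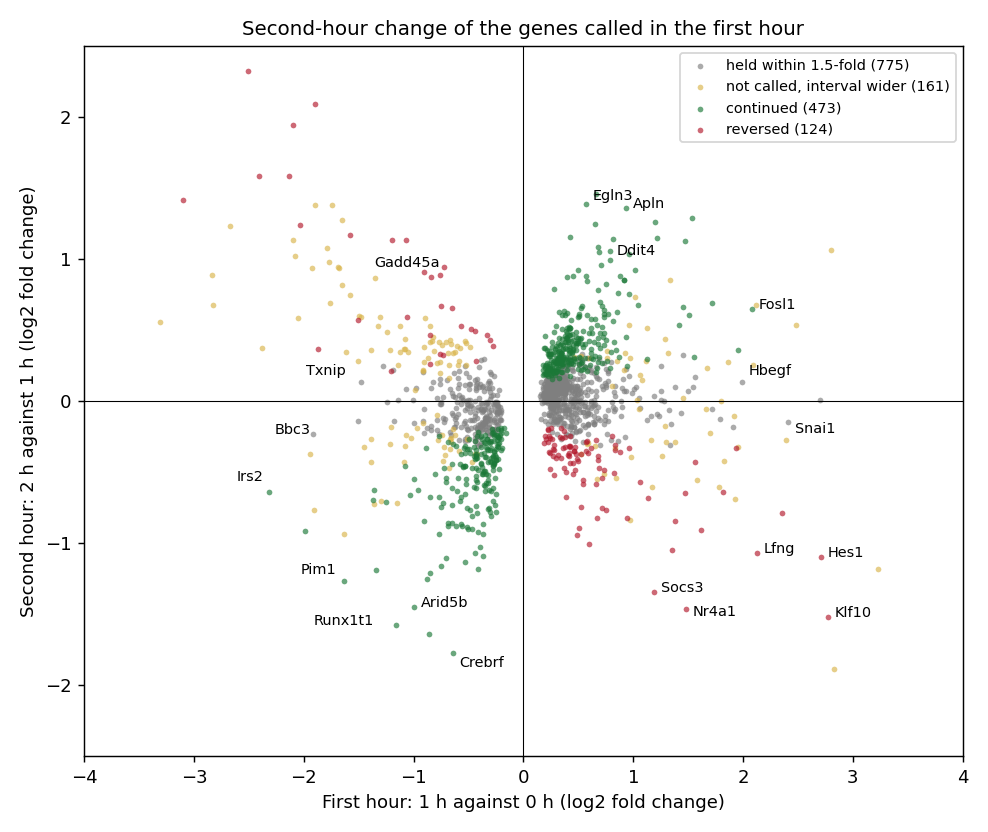
Log2 change in the first hour (x axis) against log2 change from 1 h to 2 h (y axis) for the 1533 genes called at 1 h, 1 point per gene, coloured by outcome; 2 points lie outside the axes. Both axes use the 1 h libraries. The 92 reversed risers lie at lower right, the 279 continued risers at upper right, the 194 continued fallers at lower left and the 32 reversed fallers at upper left.

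The steepest falls of the second hour among the first-hour risers belonged to transcription factors and feedback genes of the early growth factor response. Klf10, a zinc finger repressor (chromosome 15, bases 38291463 to 38300706 of the mm10 build, minus strand, protein-coding), stood at 98.2, 107, 106 and 103 CPM at 1 h and 34.7, 41.4, 32.5 and 35.9 CPM at 2 h. Every 2 h library lay below every 1 h library, and all were still above the 0 h libraries, which read 12.9, 16.4, 13.1 and 18.2 CPM. Its step was −1.52 ± 0.097 (adjusted p = 3.55e-11) after a first-hour rise of 2.77. The orphan nuclear receptor Nr4a1 went from 36.9, 33.3, 31.99 and 36.2 CPM to 11.4, 12.9, 14.4 and 11.4 CPM (−1.47 ± 0.12, adjusted p = 1.71e-09). Its 2 h values overlapped those at 0 h, 12.6, 14.3, 11.2 and 11.5 CPM. Socs3, which blocks cytokine receptors that signal through JAK kinases, went from 158, 135, 132 and 120.0 CPM to 44.2, 80.8, 43.8 and 45.1 CPM (−1.35 ± 0.19, adjusted p = 1.43e-04). Of the 2 h libraries, replicate 2 was the high one, and the other 3 lay below all 4 at 0 h, which read 62.8, 56.96, 53.4 and 65.8 CPM.

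Notch pathway genes were among the reversed risers. Hes1, a repressor that Notch switches on, stood at 47.8, 48.9, 41.6 and 42.8 CPM at 1 h and 19.3, 19.7, 21.1 and 24.7 CPM at 2 h, a step of −1.10 ± 0.12 (adjusted p = 1.66e-07). Lfng, the glycosyltransferase that tunes Notch for its ligands, went from 16.1, 13.5, 12.5 and 11.1 CPM to 5.36, 4.83, 8.35 and 6.88 CPM (−1.07 ± 0.18, adjusted p = 1.71e-04). For both genes the 2 h libraries lay between the 0 h and the 1 h libraries without overlap. The Notch ligand Jag1, which had fallen in the first hour by 0.51 on the log2 scale, fell further (−0.90 ± 0.15, adjusted p = 1.50e-04). Of the 12 tested genes of the Notch pathway list, 3 fell in the step (Hes1, Lfng and Jag1) and 1 rose (Hey1, a related repressor whose call was lost in several alternatives).

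Other reversed risers were cytokine, RNA-decay and stress genes. Lif, a cytokine of the IL6 family, fell by 0.85 ± 0.12 (from 16.04 to 21.3 CPM down to 9.12 to 11.1 CPM), and the transcription factor Csrnp1 fell by 0.91 ± 0.15. Zfp36, which binds AU-rich elements and speeds the decay of cytokine mRNAs, fell by 0.83 ± 0.088, from 20.4 to 24.2 CPM to 11.9 to 13.6 CPM. Tob1, an antiproliferative protein that recruits the deadenylase complex, fell by 0.55 ± 0.074. The AMPK-related kinase Nuak2 stood at 173, 161, 147 and 141 CPM at 1 h and 72.04, 60.6, 97.2 and 79.9 CPM at 2 h (−1.01 ± 0.096, adjusted p = 6.73e-08). Its 2 h libraries were all lower than those at 0 h, which read 102, 97.3, 104 and 108 CPM, so the fall passed the starting level. Irf1, an interferon-responsive transcription factor, fell by 0.94 ± 0.11, the chromatin reader Phf13 by 0.89 ± 0.080, the SMAD corepressor Skil by 0.74 ± 0.077, the p53 ubiquitin ligase Mdm2 by 0.41 ± 0.063 and the Krüppel-like factor Klf13 by 0.42 ± 0.085. Adjusted p ran from 9.86e-09 (Phf13) to 0.00104 (Klf13) in these 5. Relative to 0 h, 26 of the 92 reversed risers were still higher at 2 h (20.2% of all tested genes were), 7 were lower (17.5%), and 59 were not called. Median changes of the 92 were 0.48 in the first hour and −0.38 in the second.

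Held risers included the genes with some of the largest first-hour rises, and their values at 2 h interleaved with those at 1 h. Snai1, a repressor of epithelial genes (chromosome 2, bases 167538195 to 167542814, plus strand), read 73.04, 73.1, 84.9 and 83.8 CPM at 1 h and 59.2, 80.6, 68.5 and 76.4 CPM at 2 h after 16.3, 13.6, 14.6 and 14.8 CPM at 0 h. Its step was −0.15 ± 0.11 with a 95% interval of −0.38 to 0.08 (adjusted p = 0.405). Hbegf, a ligand of the EGF receptor, read 155, 143, 157 and 165 CPM and then 152, 189.9, 168 and 170.2 CPM, a step of 0.13 ± 0.083 (−0.03 to 0.30). For both genes the 1 h and 2 h libraries overlapped and lay far above 0 h. Spry4, an inhibitor of receptor tyrosine kinase signalling, was at −0.13 (−0.35 to 0.10), the zinc finger factor Egr2 at −0.06 (−0.47 to 0.36), the ERK phosphatase Dusp5 at 0.10 (−0.27 to 0.47) and the clock-linked repressor Bhlhe40 at 0.10 (−0.08 to 0.27). Scx read 3838, 4220.0, 4760.0 and 3725 CPM at 1 h and 3975, 3356, 4442 and 5642 CPM at 2 h, a step of 0.07 ± 0.11 (interval −0.15 to 0.30). Without 2 h replicates 1 and 2 the step of Scx was called, with the remaining 2 h libraries at 4442 and 5642 CPM. Insig1, which retains the sterol sensor in the endoplasmic reticulum, was not called (0.14, adjusted p = 0.129), but was called higher in 4 alternatives, all of which leave out 2 h replicate 2 or take the macrophage level as a term.

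Continued risers included AP-1 factors and metabolic and signalling genes. Fosl1, an AP-1 component (chromosome 19, bases 5447547 to 5455946, plus strand), read 12, 14.1, 10.1 and 11.03 CPM at 0 h, 50.9, 46.8, 50.3 and 51.9 CPM at 1 h and 64.2, 92.9, 81.9 and 73.9 CPM at 2 h. The 3 groups did not overlap, and the step was 0.65 ± 0.10 (adjusted p = 6.91e-05) after a first-hour rise of 2.08. Of its exonic bases, 57.2% are shared with Ccdc85b on the opposite strand, and whether counting used strand is not given in the sources used here, so reads of the 2 genes cannot be told apart. Ddit4, an inhibitor of mTORC1, read 41.8, 52.5, 47.4 and 44.2 CPM and then 80.99, 111, 102 and 92.3 CPM (1.06 ± 0.086, adjusted p = 2.22e-09). Each 2 h library was well above the 1 h range, after a first-hour change of 0.79. Apln, the peptide ligand of the apelin receptor, read 12.4, 8.35, 11.6 and 14.4 CPM and then 29.5, 42.4, 22.5 and 24.96 CPM (1.36 ± 0.19, adjusted p = 6.83e-05).

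The prolyl hydroxylase Egln3, an oxygen sensor, changed by 0.57 and then by 1.39 ± 0.15 (adjusted p = 5.33e-07). Ppp1r3b, which targets protein phosphatase 1 to glycogen, changed by 0.66 and then by 1.46 ± 0.19. Lrp8, a lipoprotein receptor, read 22.5, 24.1, 22.5 and 19.7 CPM at 1 h and 50.6, 54.3, 52.7 and 40.3 CPM at 2 h (0.43, then 1.16 ± 0.092, adjusted p = 1.71e-09). None of the 2 h values of Lrp8 came near the 1 h range. The sphingosine-1-phosphate receptor S1pr1 rose by 1.26 ± 0.16 and the secreted pentraxin Nptx1 by 1.08 ± 0.14. Errfi1, a feedback inhibitor of the EGF receptor, went from 82.4, 69.9, 73.1 and 84.8 CPM to 108, 173, 113 and 107 CPM (0.69 ± 0.14), with 2 h replicate 2 as the highest. Jun, the AP-1 partner of the FOS proteins, rose by 0.40 ± 0.070 and shares 7.28% of its exonic bases with the antisense gene Junos. The chemokine Ccl2 rose by 0.66 ± 0.096 and the prostaglandin E synthase Ptges by 0.61 ± 0.084. Among all 279 continued risers the median change was 0.41 in the first hour and 0.36 in the second. In 15 the second-hour change differed from the first-hour change, in either direction, by the test of that difference. Of all 14420 tested genes 451 did so, 0.742% upward and 2.39% downward. The 15 were not split by direction.

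**Figure D4:**
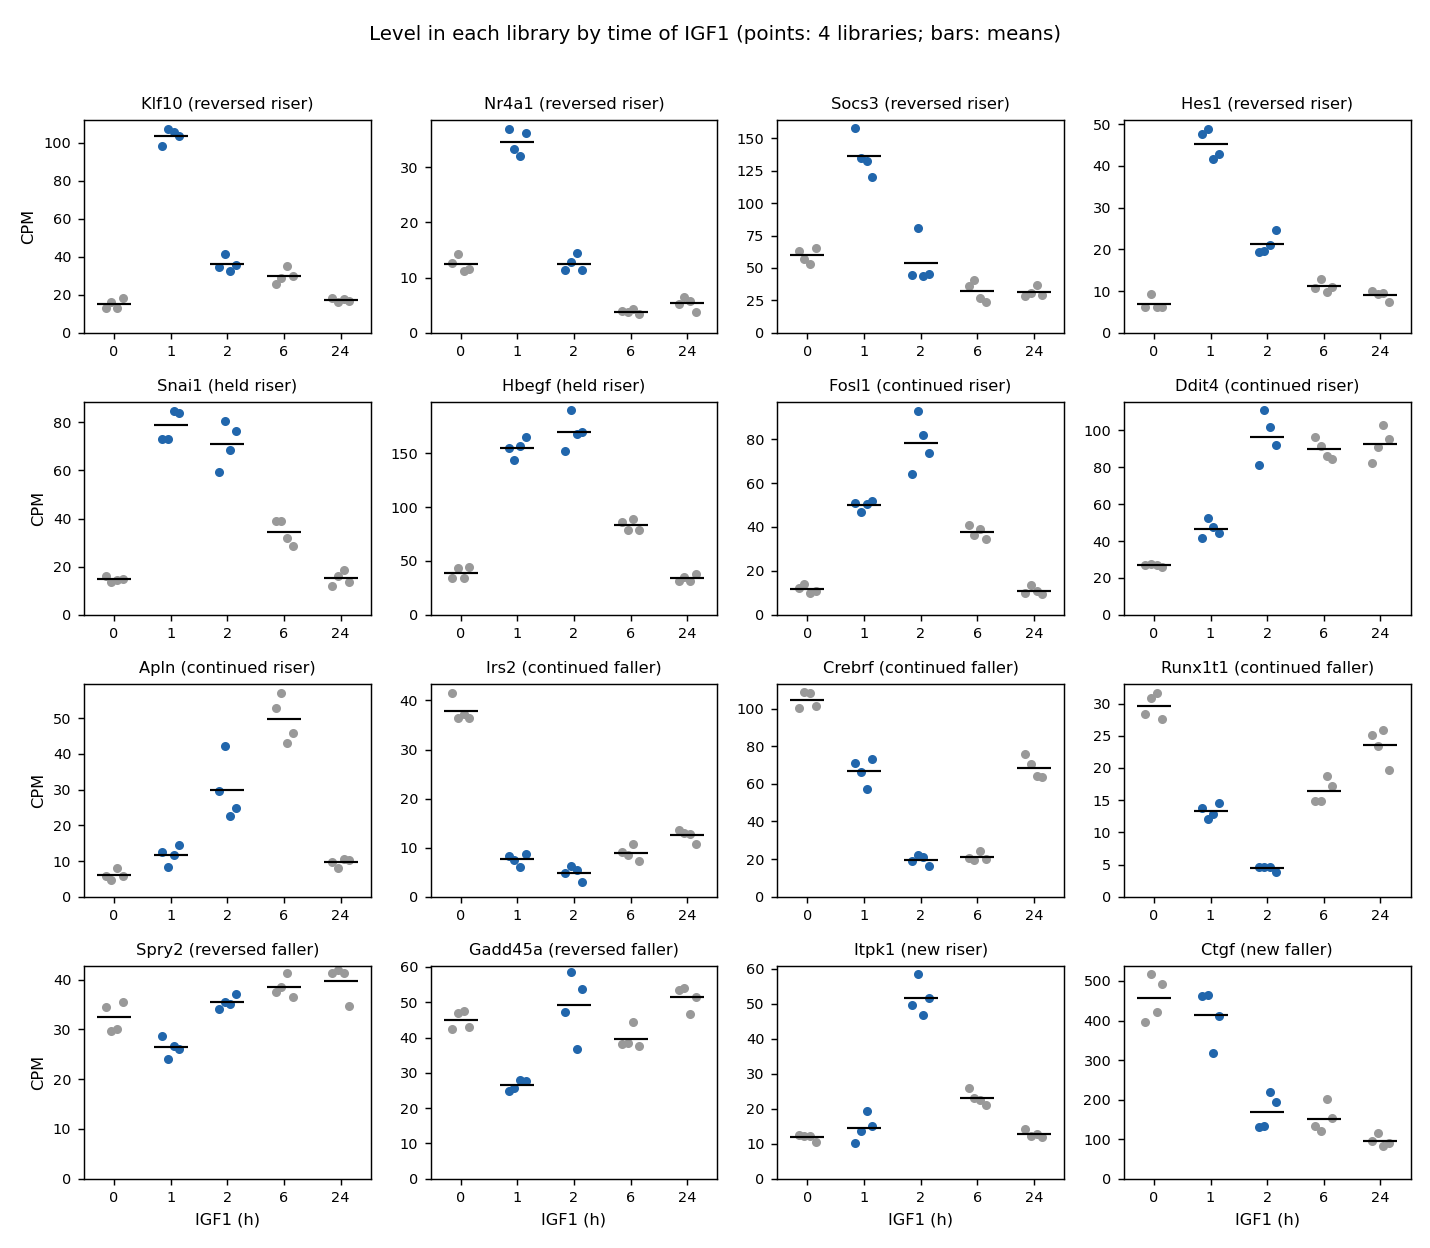
CPM (y axis) of 16 genes in every library at 0, 1, 2, 6 and 24 h of IGF1 (x axis), 1 panel per gene and 1 point per library, with the 1 h and 2 h libraries in blue. Klf10 and Nr4a1 peak at 1 h, Snai1 and Hbegf hold, Ddit4 and Apln climb on, Crebrf and Runx1t1 fall on, Spry2 and Gadd45a turn back, and Itpk1 and Ctgf move first after 1 h.

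Among called genes with a mean of at least 5 CPM at 1 h, the 3 deepest decreases of the step were those of the continued fallers Crebrf, Klhl24 and Runx1t1. Crebrf, a regulator that turns the transcription factor CREB3 off (chromosome 17, bases 26715650 to 26776635, plus strand), read 100.2, 109, 108 and 101 CPM at 0 h, 71.02, 66.6, 57.3 and 73.3 CPM at 1 h and 18.9, 22.1, 21.01 and 16.2 CPM at 2 h. The 3 groups did not overlap. Its step of −1.77 ± 0.093 (adjusted p = 6.97e-13) followed a first-hour change of −0.64. The corepressor Runx1t1 read 13.7, 12.1, 12.8 and 14.6 CPM and then 4.69, 4.68, 4.55 and 3.84 CPM (−1.58 ± 0.12, adjusted p = 3.61e-10). Klhl24, an adaptor of a cullin ubiquitin ligase, read 62.2, 56.03, 52.6 and 54.2 CPM and then 19.8, 24.3, 16.4 and 11.5 CPM (−1.64 ± 0.14, adjusted p = 1.69e-07). The DNA-binding protein Arid5b fell by 1.45 ± 0.099 and the kinase Dyrk1b by 1.11 ± 0.11. In all of these the lowest 1 h library was above the highest 2 h library.

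Signalling genes and Krüppel-like repressors also kept falling. The serine kinase Pim1 read 10.6, 12.3, 10.3 and 9.43 CPM and then 3.59, 5.79, 4.43 and 3.901 CPM (−1.26 ± 0.14, adjusted p = 1.90e-07), and Klf11, a TGF-beta-inducible repressor, read 12.7, 9.501, 9.03 and 8.54 CPM and then 4.35, 4.73, 4.203 and 4.07 CPM (−1.19 ± 0.14). Neither gene overlapped between the times. Klf15, a regulator of amino acid and glucose metabolism, fell by 0.91 ± 0.15 after −1.99 in the first hour. Rgs4, a brake on G protein signalling, fell by 1.16 ± 0.096, the interferon-induced Ifit2 by 1.19 ± 0.10, the GTPase effector Cdc42ep3 by 1.09 ± 0.088, the p53-inducible Trp53inp1 by 0.70 ± 0.093 and the clock repressor Nr1d2 by 0.55 ± 0.092. Irs2, the docking protein through which both receptors recruit PI3 kinase (chromosome 8, bases 10984681 to 11008458, minus strand), read 8.38, 7.43, 6.096 and 8.67 CPM and then 4.83, 6.29, 5.35 and 2.93 CPM. Its 1 h range and its 2 h range overlapped, and the step of −0.64 ± 0.16 (adjusted p = 0.00777) was lost in the fit of only the 8 libraries. Mkx, a homeobox factor of tendon, read 192, 186, 187 and 199.9 CPM and then 127, 99.3, 122 and 139 CPM (−0.65 ± 0.075, adjusted p = 6.31e-07), with no overlap. Slc7a11, the cystine transporter, and Rmnd5a, a subunit of an E3 ubiquitin ligase, fell by 0.60 ± 0.085 and 0.55 ± 0.069.

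Promoters of these classes were searched in RefSeq sequence of GRCm38.p6, the 250 bases before each gene's start, on both strands, for 9866 tested genes with an entry. The FoxO motif GTAAACA was in 13 of 144 continued fallers (9.03%) and in 273 of all 9866 promoters (2.77%). It was in 6 of 171 held fallers (3.51%), 4 of 217 continued risers (1.84%) and 3 of 408 held risers (0.735%). In smaller classes it was in 3 of 70 reversed risers (4.29%), 1 of 21 reversed fallers (4.76%) and 2 of 47 fallers with a wider interval (4.26%). The 13 continued fallers were Cnnm3, Otud1, Slc7a11, Trim63, Rsrp1, Rmnd5a, Stard5, Maml2, Cnksr3, Hbp1, Pim1, Uhrf2 and Eda2r. The E-box CACGTG was in 22 of 144 continued fallers (15.3%), 31 of 217 continued risers (14.3%) and 975 of all promoters (9.88%). Held risers had a similar share, 54 of 408 (13.2%). The CRE motif TGACGTCA was in 12 of 171 held fallers (7.02%) against 304 of all (3.08%). It was also in 3 of 47 fallers with a wider interval (6.38%) and 4 of 70 reversed risers (5.71%). The CArG box was in 4 of 70 reversed risers (5.71%), 0 of 144 continued fallers and 141 of all (1.43%). Motifs were counted independently of each other and may overlap. A match is a description, not a site at which binding was measured. Stretches around the matches are shown for 3 fallers whose outcomes differ, Slc7a11 and Rmnd5a having continued and Bbc3 having held, and for Crebrf, which has 2 E-boxes. They run 5′ to 3′ on the gene's strand, with the match in capitals, and the FoxO matches read TGTTTAC because they lie on the opposite strand.
Slc7a11, chr3:50443779-50443863, minus strand: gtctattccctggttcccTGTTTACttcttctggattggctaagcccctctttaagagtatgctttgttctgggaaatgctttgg
Rmnd5a, chr6:71440704-71440830, minus strand: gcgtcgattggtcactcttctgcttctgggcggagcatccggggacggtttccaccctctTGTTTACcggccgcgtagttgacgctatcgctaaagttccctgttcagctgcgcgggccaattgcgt
Bbc3, chr7:16310034-16310160, plus strand: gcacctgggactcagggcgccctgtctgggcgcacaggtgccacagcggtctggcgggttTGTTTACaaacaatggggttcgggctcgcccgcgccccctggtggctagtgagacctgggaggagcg
Crebrf, chr17:26715465-26715649, plus strand: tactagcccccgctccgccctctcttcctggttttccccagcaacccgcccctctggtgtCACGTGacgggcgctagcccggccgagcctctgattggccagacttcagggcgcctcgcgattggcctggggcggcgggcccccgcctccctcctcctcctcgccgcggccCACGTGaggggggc

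Held fallers had gone down in the first hour and moved little afterwards. Bbc3, a pro-apoptotic BH3 protein, read 19.5, 16.8, 16.4 and 15.6 CPM at 0 h, 4.87, 4.89, 4.4 and 3.92 CPM at 1 h and 3.49, 4.23, 4.09 and 3.61 CPM at 2 h. The 1 h and 2 h libraries overlapped, and the step was −0.23 ± 0.14 with an interval of −0.51 to 0.05 (adjusted p = 0.255). Txnip, an inhibitor of glucose uptake and of thioredoxin, was at 0.13 (−0.02 to 0.29), the MAP kinase phosphatase Dusp1 at −0.14 (−0.36 to 0.08) and the kinase Map3k8 at −0.14 (−0.56 to 0.28). The clock repressor Nr1d1 was at 0.25 (0.04 to 0.46) and shares 8.55% of its exonic bases with Thra. It was called higher without 2 h replicate 4, and Txnip without 1 h replicate 1. Irs1, the other main receptor substrate, is a first-hour faller with a wider interval. Its 2 h libraries read 38.6, 34.01, 43.8 and 11.5 CPM, with replicate 4 far below the rest, and its 1 h libraries 47.3, 44.9, 41.8 and 38.3 CPM (−0.43 ± 0.24, adjusted p = 0.260).

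Few first-hour fallers rose back. Gadd45a, a stress sensor that halts the cell cycle, read 24.8, 25.7, 27.96 and 27.6 CPM and then 47.3, 58.7, 36.9 and 53.8 CPM (0.89 ± 0.099, adjusted p = 3.87e-07), and its 2 h range spanned that of 0 h, 42.4, 46.9, 47.6 and 43.1 CPM. An unnamed model on the opposite strand covers 19.1% of its exonic bases. Clec2d, a C-type lectin, rose by 1.13 ± 0.17. Spry2, an inhibitor of receptor tyrosine kinase signalling, rose by 0.43 ± 0.079, from 23.9 to 28.7 CPM to 34.1 to 37.1 CPM. The coactivator Pnrc1 (0.37 ± 0.079), the antiproliferative Btg1 (0.51 ± 0.14), the repressor Bcl6 (0.33 ± 0.096) and Klf6 (0.26 ± 0.091) were called higher too, but each lost its call in several alternatives. Of the 32 reversed fallers, 10 were still below 0 h at 2 h and 22 were not called against it. In the fit of only the 12 libraries of 0, 1 and 2 h the class held 15 genes.

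Genes first called after 1 h outnumbered those that continued. Itpk1, an inositol phosphate kinase (chromosome 12, bases 102568582 to 102704930, minus strand), read 12.4, 12.1, 12.2 and 10.5 CPM at 0 h, 10.1, 13.7, 19.3 and 15.1 CPM at 1 h and 49.6, 58.5, 46.7 and 51.8 CPM at 2 h. The 0 h and 1 h libraries interleaved and the 2 h libraries stood alone above them (1.82 ± 0.12, adjusted p = 1.57e-10). Sipa1l2, a GTPase-activating protein for Rap, read 23.3, 23.9, 22.8 and 26.6 CPM and then 60.9, 84.2, 55.2 and 38.9 CPM (1.31 ± 0.16). Sema7a, a membrane-anchored semaphorin, rose by 1.69 ± 0.27. Its 2 h libraries read 12.5, 30.1, 12.7 and 11.4 CPM, with replicate 2 far above the rest. Myc, the growth-driving transcription factor, was flat in the first hour (0.02) and rose from 46.95, 43.99, 41.8 and 45.3 CPM to 54.01, 57.6, 59.6 and 65.6 CPM (0.41 ± 0.070, adjusted p = 1.62e-04), without overlap. The cell cycle genes Cdk6 (0.59 ± 0.11), a G1 kinase, and Cdt1 (0.80 ± 0.11), a factor that licenses replication origins, rose. So did Tfeb (0.85 ± 0.15), the regulator of lysosome genes, and Ciart (0.65 ± 0.13), a clock repressor. Of 26 cyclin-dependent kinase inhibitors and G1 genes, 2 rose (Cdk6 and Cdt1) and 2 fell (Cdkn1b and Rbl2), and of 20 genes of G2 phase and mitosis 0 rose and 2 fell (Plk1 and Kif20a). Over all tested genes, 7.5% rose and 8.84% fell, so the G1 counts and the G2 and mitosis fallers were near the general share. Serpina3g, a serine protease inhibitor, rose by 1.35 ± 0.24. The largest step among 20 genes of the IGF and insulin axis was that of Igfbp5, an IGF-binding protein (chromosome 1, bases 72857932 to 72874884, minus strand). It read 80.7, 63.7, 112 and 98.9 CPM and then 262, 527, 186 and 149.6 CPM (1.66 ± 0.30, adjusted p = 0.00131), with replicate 2 far above the rest, and its call was lost in the fit of only the 8 libraries.

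The 989 new fallers included targets of the cytoskeleton-linked factors YAP and SRF. Ctgf, a matricellular protein and classical YAP target (chromosome 10, bases 24595442 to 24598683, plus strand), read 395, 517, 423 and 493 CPM at 0 h, 462, 465, 318 and 412 CPM at 1 h and 132, 132, 219.9 and 193 CPM at 2 h. The 2 h libraries lay below all others (−1.29 ± 0.19, adjusted p = 2.65e-04). Ajuba, a LIM protein that restrains the Hippo kinases, read 131, 129, 123 and 112 CPM and then 57.1, 51.1, 67.4 and 63.7 CPM (−1.05 ± 0.084, adjusted p = 1.71e-09). Amotl2, which tethers YAP at junctions, fell by 0.86 ± 0.087, the Hippo kinase Lats2 by 0.81 ± 0.081 and the muscle ankyrin protein Ankrd1 by 0.67 ± 0.10. Of the 21 tested genes of the actin, SRF and YAP list, 7 fell and 0 rose, with a median step of −0.20 against 0.00 over all tested genes. The other 2 were Cyr61 and Srf, whose calls were lost in several alternatives. Srf had risen in the first hour (0.46) and is a reversed riser, not a new faller. The count of fallers in the list was 6 in the fit of only the 8 libraries, 5 without 2 h replicates 1 and 2 and 10 without 2 h replicate 4.

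Several receptors and ligands were among the new fallers, while others, S1pr1, Lrp8, Apln and Ccl2, rose as given above. Of 22 tested ligands and receptors of the EGF receptor, PDGF and FGF families 2 rose and 2 fell, and of 27 TGF-beta, BMP and ID genes 7 rose and 7 fell. Beside 7.5% higher and 8.84% lower over all tested genes, the former counts were near the general share and the latter above it both ways. Insr, the insulin receptor, read 70.8, 64.5, 64.9 and 60.99 CPM and then 49.8, 49.05, 42.5 and 31.96 CPM (−0.59 ± 0.092, adjusted p = 5.41e-05). Igf1r (−0.29 ± 0.083, adjusted p = 0.0177) and Igf1 itself (−0.19 ± 0.059, adjusted p = 0.0232) fell by less, and each lost its call in several alternatives. The neurotrophin Bdnf read 30.8, 29.1, 28.4 and 26.3 CPM and then 12.8, 13.6, 14.2 and 14.6 CPM (−1.05 ± 0.11). The BMP ligand Bmp4 fell by 0.75 ± 0.15, the activin subunit Inhba by 0.65 ± 0.099, the angiopoietin receptor Tek by 0.83 ± 0.11 and the death receptor Fas by 0.90 ± 0.13. Shroom3, an organizer of apical actin, fell by 1.34 ± 0.20, the guanine nucleotide exchange factor Fgd3 by 1.28 ± 0.15, the Ikaros family factor Ikzf2 by 1.35 ± 0.18, the kinase Nuak1 by 1.22 ± 0.12 and the ubiquitin ligase Rnf144b by 1.10 ± 0.11. Rictor, the defining subunit of mTORC2, read 56.3, 55.2, 54.4 and 59.7 CPM and then 41.6, 41.1, 40.4 and 23.01 CPM (−0.62 ± 0.12), with replicate 4 lowest at 2 h. New fallers were long genes, with a median exonic length of 6.65 kb against 3.87 kb for new risers and 4.31 kb for all tested genes. Without 2 h replicate 4, whose values fell with length, these medians were 5.38 kb for 949 new fallers and 5.26 kb for 983 new risers.

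Most tested members of 3 growth-related lists rose. Of 35 tested ribosome biogenesis genes, 25 rose and 0 fell, with a median step of 0.30. All 14 members raised in the first hour continued, and 11 were called only after it. Nop56, a core protein of the box C/D ribonucleoprotein, read 84.3, 92.4, 88.6 and 87.2 CPM and then 111, 119, 111 and 128 CPM (0.41 ± 0.058, adjusted p = 1.36e-05), with no overlap. The assembly factor Rrs1 rose by 0.52 ± 0.075 and the U3 protein Rrp9 by 0.49 ± 0.089. Counts were 10 in the fit of only the 8 libraries, 17 with the macrophage term, 22 without 2 h replicates 1 and 2 and 23 without 2 h replicate 4. The 37 cytosolic ribosomal protein genes are a contrast. Only Rplp1 and Rpl14 were called, both higher, and 2 h replicate 4 was the highest library for both (1047 and 413 CPM, others at most 766 and 305). Their median step was 0.13 with all libraries, 0.29 without 2 h replicates 1 and 2 (23 called higher) and −0.01 without 2 h replicate 4.

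Of 25 tested genes of cholesterol synthesis and uptake, 19 rose and 0 fell, with a median step of 0.31. Of 18 first-hour risers in the list, 15 continued and 3 held. Mevalonate kinase, Mvk, was called only in the second hour and went from 38.6, 43.4, 43.6 and 40.8 CPM to 54.9, 56.04, 61.2 and 67.6 CPM (0.52 ± 0.077, adjusted p = 2.51e-05). Counts were 8 in the fit of only the 8 libraries and 16 to 20 with the macrophage term, without 2 h replicate 4, without 2 h replicates 1 and 2 and without 2 h replicates 2 and 4. Of 13 fatty acid synthesis genes, 5 rose (Scd1, Scd2, Acss2, Acly and Elovl6) and 0 fell. Elovl6, a fatty acid elongase, read 41.6, 50.1, 47.1 and 53.02 CPM and then 88.6, 89.3, 81.2 and 71.8 CPM (0.79 ± 0.075, adjusted p = 3.56e-08).

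Of 27 glycolysis and hypoxia response genes, 21 rose and 1 fell, with a median step of 0.37. Only 8 of the 27 had been called higher in the first hour, and 15 were new risers. Pfkfb3, which makes the allosteric activator of glycolysis, read 48.1, 49.4, 59.7 and 54.4 CPM and then 109, 142, 96.2 and 74.6 CPM (1.00 ± 0.13, adjusted p = 1.38e-05). Its 2 h libraries were spread but all lay above the 1 h range. The glucose transporter Slc2a1 read 164, 163, 156 and 160.5 CPM and then 227, 305, 230.1 and 221 CPM (0.61 ± 0.074), and the lactate exporter Slc16a3 rose by 0.63 ± 0.084. For both, 2 h replicate 2 was the highest library. The faller was Adm, the vasodilator peptide adrenomedullin (−0.27 ± 0.066, adjusted p = 0.00602), whose call was lost in 3 alternatives (adjusted p = 0.117 to 0.170). Counts of risers were 13 in the fit of only the 8 libraries, 15 with the macrophage term and 16 without 2 h replicates 1 and 2.

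**Figure D5:**
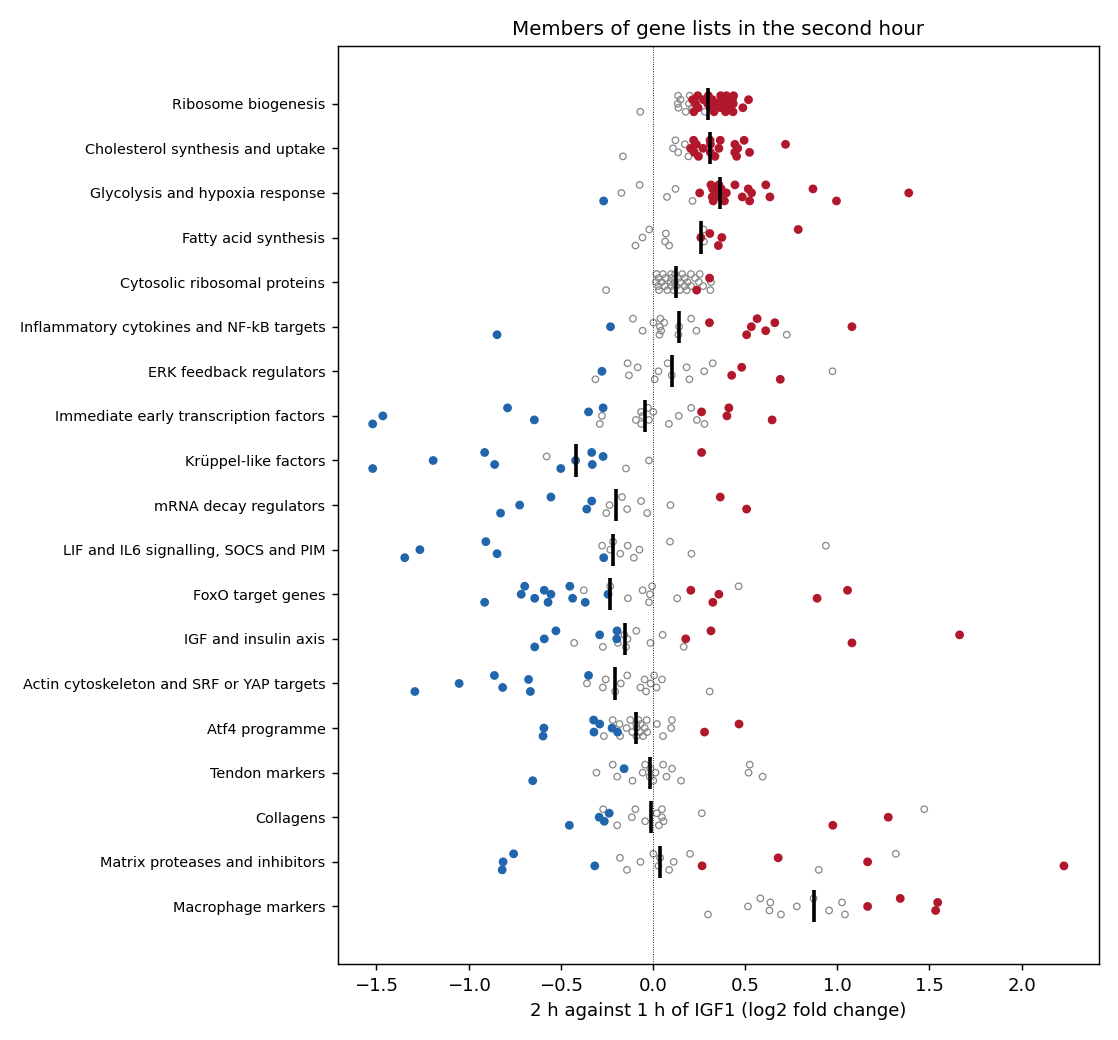
Log2 change from 1 h to 2 h (x axis) of every tested member of 19 gene lists (rows), 1 point per gene; filled red and blue points are called higher and lower, open points are not called, and a bar marks each list's median. Ribosome biogenesis, cholesterol and glycolysis members lie mostly to the right of 0, and Krüppel-like factors and actin, SRF and YAP targets mostly to the left.

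Regulatory lists split between their members, where 7.5% of all tested genes rose and 8.84% fell. Of 24 tested immediate early transcription factors, 15 had risen and 2 fallen in the first hour, and in the second 4 rose (Fosl1, Jun, Myc and Klf6) and 6 fell (Klf10, Nr4a1, Egr3, Nr4a3, Srf and Klf4). Egr3 (−0.79 ± 0.20, adjusted p = 0.00617) and Nr4a3 (−0.64 ± 0.20, adjusted p = 0.0286) reversed like Nr4a1. The call of Egr3 was lost without 2 h replicates 1 and 2, and that of Nr4a3 in several alternatives. Krüppel-like factors went down nearly as a family: 9 of 13 fell and 1 rose (Klf6), with a median of −0.42. The count of fallers was 8 without 2 h replicates 2 and 4 and 6 in the fit of only the 8 libraries. Klf3, a repressor, fell by 0.50 ± 0.066 from 261, 275, 262 and 252 CPM to 199, 176, 205 and 164 CPM, without overlap. Of 17 ERK feedback regulators, 3 rose (Spry2, Errfi1 and Dusp6) and 1 fell (Dusp7), and the calls of the 2 phosphatases were lost in several alternatives. Of 14 mRNA decay regulators, 5 fell (Zfp36, Btg2, Tob1, Rc3h1 and Zfp36l2) and 2 rose (Pnrc1 and Btg1). Btg2, an antiproliferative adaptor of deadenylation, fell by 0.72 ± 0.12. Of 15 genes of LIF and IL6 signalling, SOCS and PIM, 5 fell (Socs3, Pim1, Pim3, Lif and Lifr) and 0 rose. Pim3 fell by 0.91 ± 0.12, and the call of Lifr, the LIF receptor, was lost in several alternatives.

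Of 25 tested FoxO target genes, 12 had fallen and 2 risen in the first hour. In the second hour 11 fell and 5 rose (Sod2, Bcl6, Bnip3, Gadd45a and Ddit4), with a median of −0.23. The 12 first-hour fallers split into 5 that continued, 4 that held, 2 that reversed and 1 with a wider interval. Without 2 h replicates 2 and 4 the counts were 7 lower and 3 higher. Of 20 genes of the IGF and insulin axis, 4 rose (Igfbp3, Igfbp4, Igfbp5 and Stc1) and 6 fell (Irs2, Insr, Igf1r, Igf1, Pappa2 and Grb10). In the fit of only the 8 libraries, 1 of the 20, Insr, was called. Of 9 genes of the MYC network, Myc rose and its antagonists Mxd1, Mnt and Mxd4 fell. Mxd4 read 169.5, 179, 180.3 and 163 CPM and then 128, 114, 145 and 115 CPM (−0.46 ± 0.068, adjusted p = 2.15e-05), and Mxd1 and Mnt lost their calls in the fit of only the 8 libraries.

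Calls among matrix genes went both ways, where 7.5% of all tested genes rose and 8.84% fell. Of 19 tested tendon markers, 2 fell, Mkx and the proteoglycan Bgn, whose call was lost in several alternatives, and 0 rose. The count of fallers among these markers was near the general share. Tnmd, tenomodulin, was at 0.06 with an interval of −0.31 to 0.42, and the collagen Col3a1 at 0.05 (−0.12 to 0.22). Col1a1, the main tendon collagen chain, was at −0.27 (−0.50 to −0.04, adjusted p = 0.101), with 2 h replicate 2 the lowest at 17550 CPM, and was called lower in 3 alternatives. Of 18 collagens, 2 rose (Col5a3 and Col27a1) and 4 fell (Col11a1, Col1a2, Col8a1 and Col5a2), and 0 of these were called in the fit of only the 8 libraries. Among the proteases, Adamts5, an aggrecanase, read 1168, 1124, 905 and 964 CPM and then 546, 641, 681 and 502 CPM (−0.81 ± 0.091, adjusted p = 8.55e-07), and Adamts1 (−0.76 ± 0.11) and Adamts9 (−0.82 ± 0.14) fell as well. Of all 19 proteases and inhibitors, 4 fell (with Mmp11) and 4 rose (Timp1, Adamts15, Mmp3 and Mmp10), against 7.5% higher and 8.84% lower over all tested genes. The calls of these 4 risers were lost in several alternatives, and Mmp3 and Mmp10 were highest in 2 h replicate 2, at 310.4 and 43.8 CPM, where other 2 h libraries read at most 98.8 and 14.3 CPM. Of 22 inflammatory genes, 7 rose (Ccl2, Ccl7, Cxcl1, Cxcl5, Icam1, Ptges and Tnfaip3) and 2 fell (Lif and Nfkb1). The risers numbered 3 with the macrophage term, 3 in the fit of only the 8 libraries and 4 without 2 h replicates 1 and 2. Of 18 interferon response genes, 3 fell (Ifit2, Ifit3 and Irf1) and 0 rose.

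The levels at 6 h and 24 h were not used to form the classes. At 6 h, 245 of 279 continued risers (all tested: 20.6% higher) and 334 of 545 held risers were above 0 h, against 22 of 92 reversed risers. At 24 h the counts were 86, 74 and 9 (all tested: 12.7% higher). Of the continued fallers, 169 of 194 were below 0 h at 6 h (all tested: 19.6% lower) and 95 at 24 h (13.2%), and of the held fallers 139 of 230 and 48. Of the new risers, 457 of 771 were above 0 h at 6 h and 177 at 24 h, and of the new fallers 671 of 989 were below it at 6 h and 418 at 24 h. These comparisons share the 0 h libraries with the first-hour calls, and no test of the difference between classes was made. By gene, Klf10 was at 29.8 ± 3.92 CPM at 6 h and 17.2 ± 1.03 CPM at 24 h (SD, n = 4), Ddit4 at 89.7 ± 5.48 and 92.8 ± 8.55, Crebrf at 21.03 ± 2.21 and 68.5 ± 5.72, and Igfbp5 at 287 ± 28.1 and 888 ± 74.7. By 24 h Klf10 was near its 0 h level, Ddit4 was as high as at 2 h, Crebrf had come part of the way back, and Igfbp5 was at its highest.

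The authors' deposited table of the same comparison lists 12207 genes, of which 2434 have an FDR under 0.05, 1212 higher and 1222 lower. Of these, 2251 were also called here, all 2251 in the same direction.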

How the data were processed

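RNA was sequenced from 20 mouse tail tendon tenocyte libraries, 4 at each of 0, 1, 2, 6 and 24 h of IGF1. The authors deposited whole-number read counts per gene for 29986 genes and, in a second table, log2 fold changes, average log2 CPM and p-values per comparison, per the file headers. STAR, FastQC and edgeR, without versions, and mm10 are named in the submitters' processing notes. How reads were counted, and whether by strand, is not given in the sources used here. Their results table, whose model is likewise not stated, served once, for a comparison of calls.

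Groups and replicate numbers came from the labels. The description of 0 h replicate 2 repeats that of 0 h replicate 1, but their counts differed by more than sampling noise, with chi-squares of 3.95 to 9.9 per degree of freedom among the 0 h pairs, so both were kept. The gene filter filterByExpr over the 5 groups kept 14420 genes with 99.9% of the counts. Counts were scaled by TMM, and all 20 libraries entered 1 robust quasi-likelihood fit in edgeR 4.0.16 (R 4.3.3), which shares 1 estimate of the spread among groups although the 2 h libraries varied more. Contrasts were 2 h against 1 h, 1 h against 0 h, 2 h against 0 h, and the difference between the second-hour and the first-hour change. The SE is the log2 fold change divided by the square root of F, and 95% intervals use the t distribution with the fit's degrees of freedom. P-values were adjusted by Benjamini-Hochberg over all tested genes. The fit was tested on simulated counts in which all times had the same spread for a gene. That test therefore does not cover the greater spread of the 2 h libraries. Total counts set the precision: 15850304 to 22687173 per library at 0 to 2 h.

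Genes were named by a rule: the largest steps, the largest of each class with no overlap of libraries and at least 5 CPM, the leading members of each list, and a fixed set of IGF axis and tendon genes. Genes in small counts, FoxO-motif genes and the genes at the threshold are named as well, after their values were seen. The comparison, the 47 gene lists (890 entries, 824 tested) and the classes were chosen with earlier results of these data known. Positions come from GENCODE M21 and promoters from RefSeq, both of mm10 (GRCm38). Tried as alternatives were DESeq2 1.42.0, RLE scaling, a filter of at least 1 CPM in 4 libraries or none, a block for the replicate number, a term for the macrophage marker level, fits of only the 8 or 12 libraries concerned, a threshold of 0.01, and leaving out libraries. Some genes that the rule allows are not reported here.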

Additional observations from a re-analysis of the deposited data

Results flagged for a closer look

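Values of 175 genes and 3 library measures were screened in each group of 4 libraries at 0, 1 and 2 h for a library far from the other 3, by Dixon's 95% limit for 4 values, which chance passes in about 1 in 20 groups. Of 534 groups, 35 (6.55%) had such a library, and 17 of these were at 2 h, where replicate 2 accounted for 10 and replicate 4 for 6.

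Replicate 2 was the high library at 2 h for Socs3 (80.8 CPM, others 43.8 to 45.1), Sema7a (30.1, others 11.4 to 12.7), Errfi1 (173, others 107 to 113), Slc2a1 (305, others 221 to 230), Slc16a3 (229, others at most 187), Bhlhe40 (315), Dusp6 (19.9), Btg1 (42.5), Stc1 (6.09) and Mmp3 (310.4). The macrophage and Schwann cell markers were also highest in this library, and their part in these values was not tested.

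Replicate 4 stood apart at 2 h as the highest for Ccl2 (348 CPM, others at most 264), Ccl7 (217), Lats2 (109.9) and Rpl14 (413) and as the lowest for Rictor (23.01, others 40.4 to 41.6) and Runx1t1 (3.84). Replicate 3 was the highest for Srf (99.1).

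At 1 h, replicate 3 was the highest for Cdt1 (10.7 CPM), Dusp7 (51.4) and Sod2 (54.6) and the lowest for Pappa2 (6.92), replicate 4 the highest for Ppp1r3b (11.2), and replicate 2 the lowest for Zfp36l2 (455). The mitochondrial share was 1.68% in 1 h replicate 4 and 1.36% to 1.41% in the other 1 h libraries. At 0 h, replicate 1 was the highest for Ajuba (132 CPM) and Amotl2 (1252) and the lowest for Eda2r (69.9), replicate 2 the highest for Hes1 (9.29), Rgs4 (107), Skil (56.6) and Spry4 (11.7) and the lowest for Mmp3 (53.4), replicate 3 the lowest for Col5a2 (11200), and replicate 4 the lowest for Itpk1 (10.5) and Pappa2 (7.29).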

How the results depend on the processing

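Scaling, filters and DESeq2 kept every count of called genes and of classes within 1.5 times its value. For this, held genes and those with a wider interval were counted together. No interval was computed with DESeq2, so held genes were not told apart in that fit. The median step of all genes stayed within 0.02 of 0 in every alternative run. The replicate block gave 2250 calls in the step. Deviations from the group means correlated at −0.17 to 0.02 between same-numbered 1 h and 2 h libraries and at −0.20 to 0.18 between others. No pairing by number was seen, but with 4 uneven libraries per time these correlations cannot exclude it. The fit of only the 8 libraries compared gave 776 calls in the step (326 higher, 450 lower), 860 lower at 1 h and 1682 lower at 2 h against 0 h. With the macrophage term there were 1205 (531 and 674) in the step and 3256 (1848 and 1408) at 2 h against 0 h, with 56 risers and 13 fallers reversed, 324 new risers and 484 new fallers; since the markers were higher at 2 h, the term absorbs some of any change between the times. The 12 libraries of 0, 1 and 2 h alone gave 163 continued and 59 reversed risers, 127 continued and 15 reversed fallers, 428 new risers and 608 new fallers. At an adjusted p under 0.01 these numbers were 140, 52, 99, 9, 322 and 551, with 190 fallers not called further. Without 2 h replicates 2 and 4, chosen after seeing the data, the step had 1615 calls (835 lower), 1 h against 0 h had 2409 (1068 lower), 976 risers and 755 fallers had no further change called, and there were 446 new risers and 491 new fallers. Leaving out 1 library at a time, the step had 1607 to 2739 calls, 1 h against 0 h had 445 to 909 lower, continued fallers numbered 133 to 293, reversed fallers 21 to 48, fallers with no further change called 265 to 568, new risers 504 to 1047 and new fallers 654 to 1023. The high values came without 2 h replicate 4, except for the new risers and new fallers, where they came without 2 h replicate 3, and the lows without 1 h replicates 1 to 4. Mmp10 turned from 2.23 to −0.0055 without 2 h replicates 1 and 2 (adjusted p = 0.995). The cause was not tested. Genes of few CPM rest on few reads, and their steps have the widest intervals.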
